A study of Mus musculus with 7 samples.

Results

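The fibrillar collagens are the collagens whose chains pack side by side into the rope-like fibrils of connective tissue and tumour stroma. The 10 genes described here, Col1a1, Col1a2, Col2a1, Col3a1, Col5a1, Col5a2, Col5a3, Col11a1, Col11a2 and Col27a1, were taken by symbol from a table of 24421 genes, and all 10 were found in it. The table holds RNA-seq read counts of 7 mouse tumours at week 4. All 7 mice were treated with anti-PD-1, an antibody to an inhibitory T cell receptor. In addition, 3 control mice got anti-KLH, an antibody against a limpet protein that mice lack, and 4 mice got anti-Lair1 (anti-LAIR1 below).

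LAIR1 is an inhibitory receptor of leukocytes whose ligands are collagens, so the genes described here encode the proteins that the blocked receptor binds. The series text covers tumours of the lung cancer line 344SQ (from K-rasLA1/+p53R172H∆g/+ mice), implanted under the skin of 129/Sv mice, and lung tumours of a KrasLSL-G12D/p53fl/fl mouse in which adenoviral Cre starts the tumours. The labels tie none of the 7 libraries to one of these models, and give no age, sex or batch for a single mouse. Each library has its own mouse name. Control names start with LOHM or KWM and anti-LAIR1 names with WTSV, so any difference these prefixes mark cannot be told apart from the treatment.

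A fibrillar collagen molecule is a triple helix of 3 chains, each a long unbroken run of triplets that begin with glycine and often hold proline in the other positions. Type I collagen joins alpha-1 and alpha-2 chains, type III is made of 1 kind of chain, and type V mixes with type I and limits fibril width. Types II and XI form the fibrils of cartilage. Chains are hydroxylated and folded in the endoplasmic reticulum, trimmed at their ends after secretion, and then crosslinked. LAIR1 recognises triplets of glycine, proline and hydroxyproline, the last being made from proline after translation.

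That repeat can be read directly in the genes. In GENCODE M21 transcripts (GRCm38), the longest run of triplets that begin with a glycine codon was 338 triplets in Col1a1 and from 337 to 344 in every other member except Col27a1, where it was 217. Much of the helix is encoded by exons of exactly 54 bases, nearly all of them 6 whole triplets: Col1a1 has 21 such exons among its 51 coding exons and Col27a1 has 33 of 61. For both type I chains and for 1 chain each of types III, V, XI and XXVII, the exon of 54 bases with the most glycine-proline-proline triplets is shown, read 5′ to 3′ on the coding strand with those triplets in capitals.
Col1a1 exon 9: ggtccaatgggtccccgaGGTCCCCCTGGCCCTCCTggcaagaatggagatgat
Col1a2 exon 38: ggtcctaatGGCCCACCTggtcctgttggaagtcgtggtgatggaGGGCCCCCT
Col3a1 exon 6: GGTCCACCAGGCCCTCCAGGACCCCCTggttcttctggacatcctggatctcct
Col5a1 exon 21: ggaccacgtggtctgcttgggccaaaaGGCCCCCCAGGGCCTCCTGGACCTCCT
Col11a1 exon 54: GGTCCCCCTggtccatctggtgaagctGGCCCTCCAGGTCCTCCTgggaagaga
Col27a1 exon 5: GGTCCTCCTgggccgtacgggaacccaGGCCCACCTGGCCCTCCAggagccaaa
They lie at chr11:94940118-94940171 (plus strand), chr6:4531895-4531948 (plus), chr1:45325360-45325413 (plus), chr2:27973148-27973201 (plus), chr3:114187698-114187751 (plus) and chr4:63235330-63235383 (plus). Every run of 9 bases in them starts with a glycine codon (gg and any base), and they hold 2 or 3 glycine-proline-proline triplets each.

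The members differ in how many such triplets, the codons behind LAIR1's recognition repeat, their run encodes. Col5a1 had 45 of 338 (13.3%), Col5a3 43 (12.8%), Col1a1 41 (12.1%), Col3a1 39 (11.3%) and Col11a1 38 (11.2%). Col11a2 had 32 (9.47%), Col2a1 31 (9.14%), Col5a2 30 (8.85%), Col27a1 15 (6.91%) and Col1a2 21 (6.19%). The type I chains thus stand far apart in this count, and so do the type V alpha-1 and alpha-2 chains. The longest unbroken series of them was in Col1a1, 5 triplets that end its glycine run. It is shown because it is the longest in the family, and capitals mark the whole series.
Col1a1 exon 48, chr11:94950291-94950335: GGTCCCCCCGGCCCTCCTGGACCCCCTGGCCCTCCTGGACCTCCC
Within its longest glycine run Col11a2 had at most 2 in a row and Col27a1 only single ones, while exon 5 of Col27a1, shown above, lies outside that run. These are counts of codons, which do not show how many of the prolines were hydroxylated.

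Total counts ranged from 9879762 to 26255727 per library. By edgeR's quasi-likelihood test 0 of 13545 genes (0% of those tested) passed an adjusted p of 0.05, and the smallest adjusted p over all of them was 0.175. The counts come from whole tumour tissue, so fewer cells of a type and less RNA per cell cannot be told apart. Fibroblast marker genes were counted in every library, with Dcn at 57.0 to 131 CPM and Pdgfrb at 76.7 to 113 CPM. Cdh1, an epithelial adhesion gene, stood at 2140 to 3283 CPM. All p-values measure the spread between these mice.

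The 10 fibrillar collagen genes together took from 0.310% to 0.333% of all counts in the 3 controls and from 0.228% to 0.371% in the 4 anti-LAIR1 libraries. In CPM (reads scaled to one common library size after TMM correction), the sum was 3350, 3079 and 3350 in the controls, with a mean of 3259 ± 156 (SD, n = 3). It was 2568, 3009, 3677 and 2193 in anti-LAIR1 replicates 1 to 4, with a mean of 2862 ± 638 (SD, n = 4). The anti-LAIR1 tumours therefore held both the highest and the lowest sums of the 7, with the controls between them. Col1a1, Col1a2 and Col3a1 made up from 75.2% to 77.9% of this sum in every library.

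The level of each gene per kilobase of exon gave 4 tiers (CPM per kb, mean ± SD over 7 libraries). The chains of types I and III were the most abundant, with Col1a1 at 148 ± 28.6, Col3a1 at 137 ± 28.2 and Col1a2 at 127 ± 22.4. The ranges of these 3 overlapped. Within libraries Col1a1 was above Col1a2 in all 7, whereas Col3a1 changed places with both: it was the highest in anti-LAIR1 replicates 2 and 3, and Col1a1 in the other 5 libraries. In the second tier stood Col5a2 (33.1 ± 4.72), Col5a1 (27.2 ± 6.42) and Col27a1 (26.3 ± 3.59), whose ranges also overlapped. Col5a2 was the highest of these 3 in all 7 libraries, while Col5a1 and Col27a1 changed places between libraries. Col5a3 followed at 9.55 ± 1.98, below every member of the tier above in every library. Col11a1 (0.405 ± 0.244) and Col11a2 (0.402 ± 0.155) lay far lower, changed places between libraries and could not be ranked against each other. Col2a1 was the last in all 7.

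**Figure D1:**
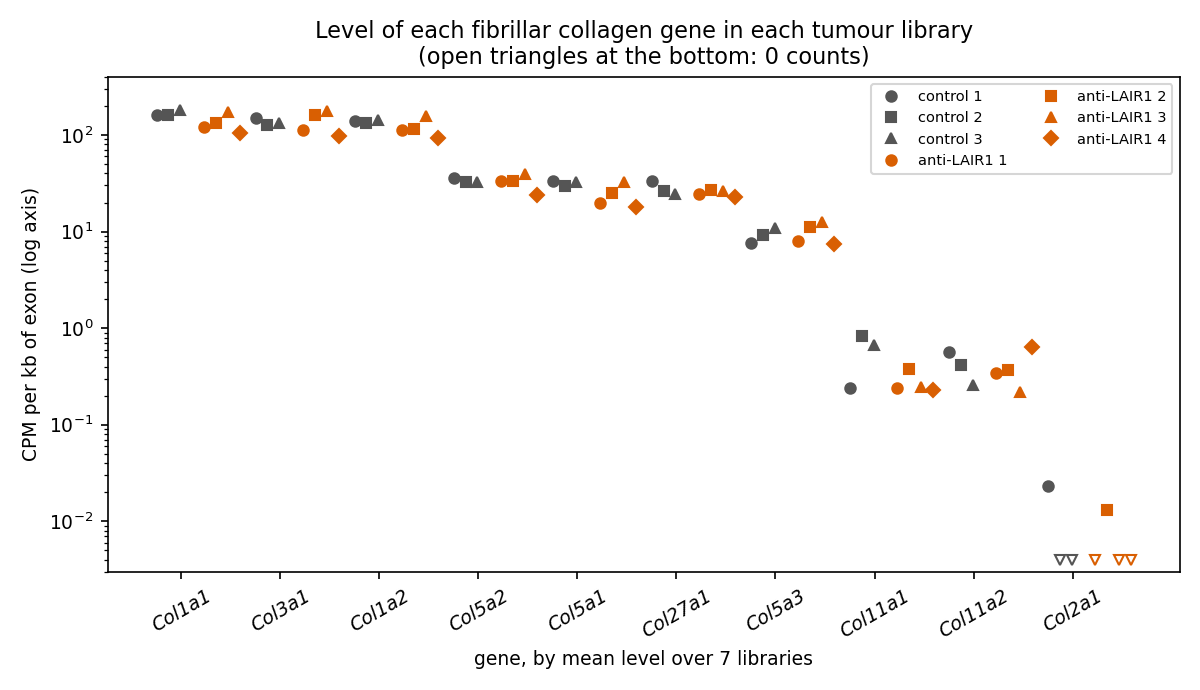
Level of each fibrillar collagen gene in each library, in CPM per kb of exon on a log axis, with genes ordered by their mean, grey symbols for the 3 controls and orange symbols for the 4 anti-LAIR1 libraries. Genes fall into steps, from Col1a1 at a mean of 148 down to Col2a1, and within each gene the grey and orange symbols overlap.

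Col1a1 encodes the alpha-1 chain of type I collagen, the main fibril protein of most stroma (chromosome 11, 94936224 to 94953042, GRCm38). Its level was 944, 945 and 1085 CPM in control replicates 1 to 3 and 726, 782, 1031 and 623 CPM in anti-LAIR1 replicates 1 to 4. Anti-LAIR1 replicates 1, 2 and 4 lay below all controls and replicate 3 lay among them, so the groups overlapped. The log2 fold change, anti-LAIR1 minus control, was -0.33 (SE 0.16, 95% interval -0.68 to 0.02, edgeR adjusted p = 0.978). In the 15 alternative fits it lay between -0.48 and -0.23, and the lowest adjusted p of any of them (edgeR, DESeq2 or limma-voom) was 0.482. The value of -0.48 was without anti-LAIR1 replicate 3, with an unadjusted edgeR p of 0.00266. That library was the only overlap with the controls, so leaving it out separates the groups and this p is no support for a difference.

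Col1a2, which encodes the alpha-2 chain of the same molecule (chromosome 6, 4504814 to 4541544), varied much as Col1a1 did. It stood at 740, 706 and 773 CPM in the controls and at 599, 614, 846 and 493 CPM with anti-LAIR1. Again 3 of the 4 anti-LAIR1 libraries were below every control, and replicate 3 was the highest of all 7. The log2 fold change was -0.21 (SE 0.16, 95% interval -0.57 to 0.15, edgeR adjusted p = 1.00). It was -0.38 without anti-LAIR1 replicate 3 and -0.11 without replicate 4, and neither fit gave a call.

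Col3a1 encodes type III collagen, abundant in young and loose stroma and in granulation tissue (chromosome 1, 45311538 to 45349706). Controls had 834, 700 and 745 CPM, and anti-LAIR1 libraries had 621, 902, 987 and 542 CPM. Here 2 anti-LAIR1 libraries lay above all controls and 2 below all of them, so the means of 760 ± 68.2 (n = 3) and 763 ± 215 CPM (n = 4) came out alike from unlike libraries. The fold change was 0.01 on the log2 scale (SE 0.20), and its 95% interval, -0.46 to 0.47, allows a change in either direction (edgeR adjusted p = 1.00). Its sign turned in 5 of 15 alternative fits.

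Type V collagen has a regulatory role at the fibril surface. Col5a1, its alpha-1 chain (chromosome 2, 27886425 to 28039514), had 284, 249 and 271 CPM in the controls. The anti-LAIR1 libraries had 165, 213, 271 and 150.5 CPM, of which replicates 1, 2 and 4 lay below every control. The log2 fold change was -0.42 (SE 0.19, 95% interval -0.85 to 0.00, unadjusted p = 0.0517, edgeR adjusted p = 0.967). It lay between -0.61 and -0.27 in the alternative fits, none of which called it. The lower value was without anti-LAIR1 replicate 3, with an unadjusted edgeR quasi-likelihood p of 0.00173. That library was the only overlap with the controls, so leaving it out separates the groups and this p is no support for a difference. The lowest adjusted p of any alternative fit (edgeR, DESeq2 or limma-voom) was 0.477.

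Col5a2, the alpha-2 chain (chromosome 1, 45374321 to 45503282), lies 24614 bases from Col3a1 on the opposite strand. Its controls stood at 238, 216 and 218 CPM, and the anti-LAIR1 libraries at 220, 219, 263 and 159 CPM. Replicates 1 and 2 lay within the controls' range here, unlike for Col5a1, replicate 3 was above it and replicate 4 below it. The log2 fold change was -0.06 (SE 0.15, 95% interval -0.39 to 0.27). Col5a3, a further type V chain with a narrower tissue range (chromosome 9, 20770050 to 20815067), had 46.8, 56.0 and 67.0 CPM in controls and 49.0, 67.8, 76.7 and 45.8 CPM with anti-LAIR1. Its log2 fold change was 0.08 (SE 0.20, 95% interval -0.37 to 0.54), with overlapping groups, and both genes had an edgeR adjusted p of 1.00.

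The cartilage chains were scarce. Col11a1, the alpha-1 chain of type XI collagen that is also made by some tumour fibroblasts (chromosome 3, 114030540 to 114220718), had 47, 85 and 50 counts in controls and 28, 44, 22 and 24 with anti-LAIR1. Its levels were 1.86, 6.36 and 5.09 CPM against 1.84, 2.93, 1.90 and 1.74 CPM. Control replicates 2 and 3 stood above all other libraries, while control replicate 1, the deepest library, lay among the anti-LAIR1 ones. The log2 fold change of -1.05 was the largest of the family (SE 0.42, 95% interval -1.98 to -0.11, unadjusted p = 0.0318), but its edgeR adjusted p was 0.944. It moved to -0.68 without control replicate 2, to -0.63 with the muscle level as a covariate and to -1.45 without control replicate 1.

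Col11a2, the alpha-2 chain of type XI collagen (chromosome 17, 34039437 to 34066685), had from 16 to 90 counts per library. It stood at 3.56, 2.62 and 1.63 CPM in controls and at 2.17, 2.33, 1.38 and 4.07 CPM with anti-LAIR1, and its log2 fold change was -0.09 (SE 0.40, edgeR adjusted p = 1.00). Its order over the libraries was unlike that of the other members: anti-LAIR1 replicate 4, lowest for the abundant chains, was highest here. Col2a1, the chain of type II collagen and a defining product of cartilage (chromosome 15, 97975602 to 98004695), had 3 counts in control replicate 1, 1 in anti-LAIR1 replicate 2 and 0 in the other 5 libraries. That is at or under 3 counts, or 0.119 to 0.305 CPM per library, and no difference was detectable at this depth.

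Of 11 other cartilage genes, 6 had at most 3 counts in every library, among them Matn1, Col9a1, Col9a2 and Lect1. Matn3 had 10 to 35 counts, Comp 1 to 22 and Col10a1 0 to 7, and Hapln1 had 80 counts in anti-LAIR1 replicate 4 and 0 to 10 in the other libraries. Acan, the cartilage proteoglycan aggrecan, was far higher, at 126 to 463 CPM in controls and 160 to 312 CPM with anti-LAIR1, and Sox9, a transcription factor known to act on Col2a1 and Col11a2, stood at 113 ± 10.8 (n = 3) and 131 ± 14.7 CPM (n = 4).

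Col27a1 encodes type XXVII collagen, a fibril-forming chain with a shorter helix that is known from cartilage and developing epithelia (chromosome 4, 63214004 to 63334991). It had 257, 198 and 184 CPM in controls and 186, 206, 200.2 and 172.2 CPM with anti-LAIR1. Only control replicate 1 stood apart, above the other 6, which lay close together. The log2 fold change was -0.16 (SE 0.12, 95% interval -0.43 to 0.11, edgeR adjusted p = 1.00). Its level per kilobase was near that of Col5a1. Mir455 lies within this gene on the same strand, as Gm43921 overlaps Col1a2, Gm47302 Col3a1 and Gm38211 Col5a2. On the other strand 2810430I11Rik and Gm13372 overlap Col5a1, and Gm26274 overlaps Col5a3. Some reads of these 6 chains may therefore be shared with those genes.

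Read as a family, 0 of the 9 tested members passed the adjusted test, where the share of all tested genes was 0%, and 7 were below 0 where 50.9% of all genes were. The median log2 fold change of the 9 was -0.16, beside -0.00285 over all genes. It was -0.044 without control replicate 1 and -0.25 without control replicate 3. Unadjusted, 1 member (Col11a1, lower) had a p under 0.05, and 5.15% of all tested genes did (1.63% lower, 3.51% higher). This count was 3 with DESeq2 (Col1a1, Col5a1 and Col11a1), 2 after thinning or with the CPM filter, and 0 with the muscle covariate, where the SEs were larger. It was 3 without anti-LAIR1 replicate 3 (Col1a1, Col1a2 and Col5a1), and 0 without control replicate 2 or 3 or anti-LAIR1 replicate 1 or 4. The 5.15% belongs to the main fit only. For the other fits the share of all genes is not given, so their counts cannot be read as a result about the members. The groups overlapped for all 9, while they did not for 5.57% of tested genes. DESeq2 called 54 genes, 0.388% of those it tested, and limma-voom called 0 (0%), and neither called a member.

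**Figure D2:**
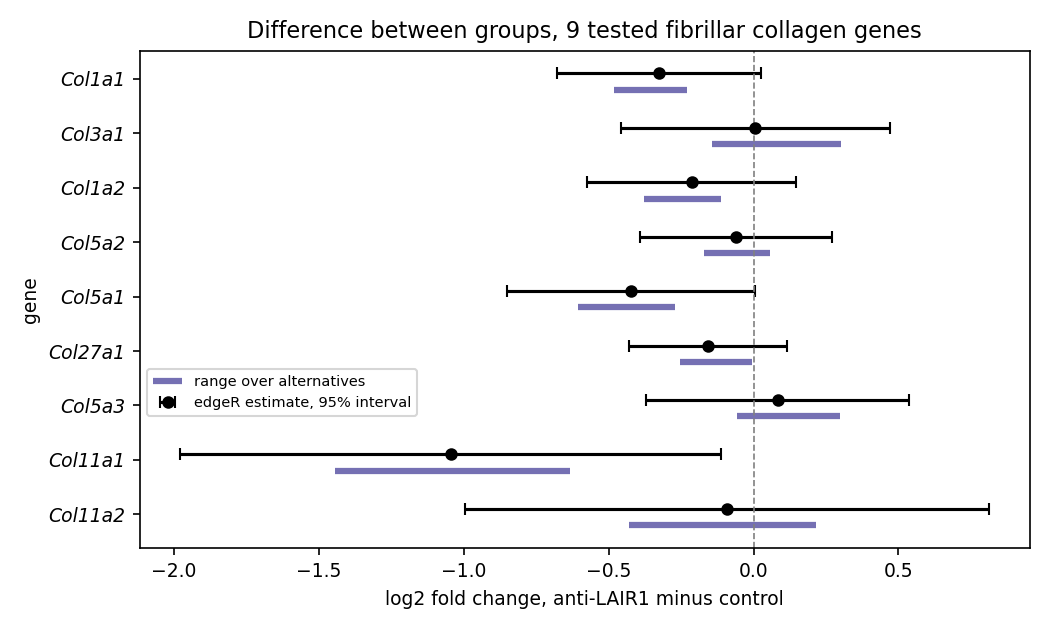
Log2 fold change of the 9 tested genes, anti-LAIR1 minus control, with 95% intervals of edgeR's quasi-likelihood fit (black) and the range of the estimate over 15 alternative fits (purple). All intervals but that of Col11a1 (-1.98 to -0.11) include 0, and the purple bars of Col3a1, Col5a2, Col5a3 and Col11a2 cross it.

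The spread within groups differed from gene to gene. The coefficient of variation of Col1a1, Col1a2, Col3a1, Col5a1 and Col5a2 lay between 4.56% and 8.98% over the 3 controls and between 19.8% and 28.1% over the 4 anti-LAIR1 libraries. For Col5a3 (17.8% and 24.8%) and Col11a2 (37.2% and 45.5%) the values were closer, and for Col11a1 (52.3% and 26.3%) and Col27a1 (18.03% and 8.03%) the controls had the larger one. Differences in spread were not tested. Anti-LAIR1 replicate 4 had the lowest level of the 7 for 8 of the 9 tested members, and replicate 3 had the highest for 4. The sum of fibroblast markers was also lowest and highest in these libraries, but over the others its order was not that of the collagen sum. The summed level of 12 such markers, all tested and all counted in these tumours, was 395 to 465 CPM in controls, 348 CPM in anti-LAIR1 replicate 4, 560 CPM in replicate 3, and 505 and 453 CPM in replicates 1 and 2. Anti-LAIR1 replicate 1 was thus above every control in these markers but below every control in summed collagen (2568 against 3079 to 3350 CPM). Single markers varied: replicate 4 was the lowest of the 7 for 5 of the 12 and replicate 3 the highest for 5, while Lrrc15, a marker of tumour fibroblasts, was lower in all 4 anti-LAIR1 libraries (20.9 to 41.9 CPM) than in the controls (50.4 to 67.6 CPM). Lrrc15 was the only 1 of the 12 to separate the groups, as 2.51% of all tested genes did in the lower direction. Its edgeR adjusted p was 0.753, and 9 of the 12 markers had a log2 fold change above 0. The part of fibroblast content in the collagen levels was not tested.

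**Figure D3:**
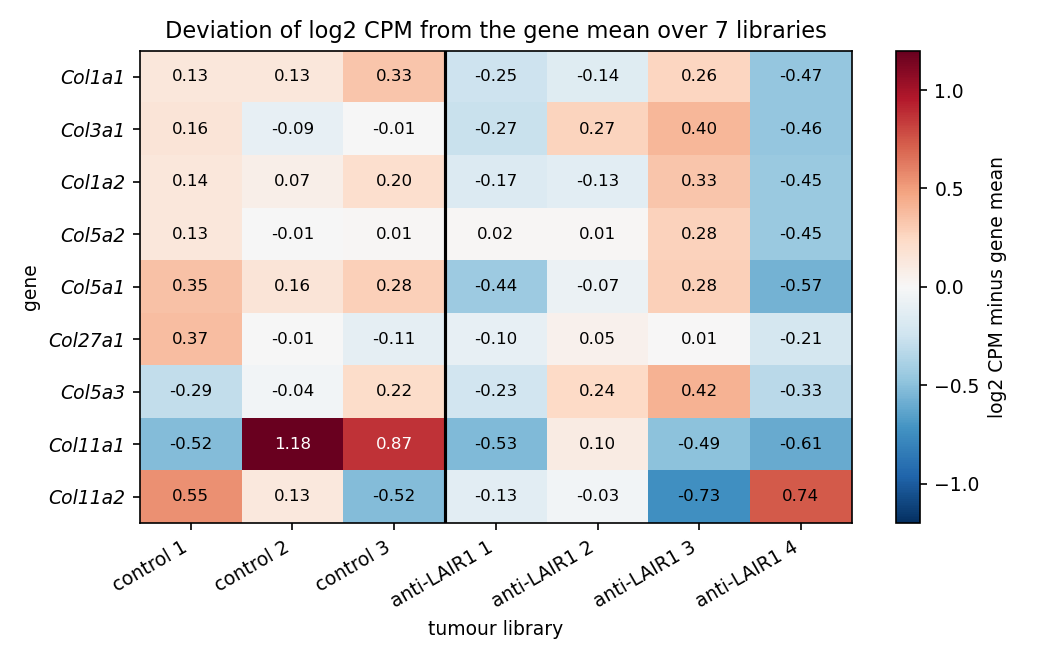
Deviation of log2 CPM from each gene's mean over the 7 libraries, for the 9 tested members, with red for higher and blue for lower and a black line between controls and anti-LAIR1 libraries. The column of anti-LAIR1 replicate 4 is blue for every gene but Col11a2, and that of replicate 3 is red for the chains of types I, III and V.

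Skeletal muscle and leukocyte markers were higher in sum in all 4 anti-LAIR1 libraries than in the controls, with 0 genes of either list past edgeR's adjusted test. DESeq2 called 2 genes of each list, and 0.388% of all genes it tested. The list genes were Ttn (DESeq2 adjusted p = 0.00189) and Neb (0.00368) for muscle, and Csf1r (0.00953) and Lcp1 (0.0253) for leukocytes. Des, listed with the pericyte and smooth muscle genes, was called too (DESeq2 adjusted p = 0.0110). The summed level of 12 skeletal muscle markers, all in the table and 5 of them tested, was 5.82 to 8.86 CPM in controls and 10.6 to 123 CPM with anti-LAIR1, with Ttn from 2.97 to 5.54 against 8.12 to 94.6 CPM and Pvalb at or under 3 counts in every library. With the muscle level as a covariate, the log2 fold changes of Col1a1, Col1a2, Col3a1 and Col5a1 were -0.30, -0.22, 0.30 and -0.27. Their SEs were 0.25, 0.26, 0.28 and 0.29, against 0.16, 0.16, 0.20 and 0.19 without it. Muscle level went with treatment in these libraries, so this fit separates them poorly. Leukocyte markers summed to 260 to 307 CPM in controls and 360 to 451 CPM with anti-LAIR1 (9 of 10 tested, all 9 above 0, Ms4a1 at 0 in every library). Epidermal markers summed to 25.9 to 135 CPM and 14.9 to 25.8 CPM, with a median log2 fold change over 3 tested genes of -0.99, or -0.081 without control replicate 3. Fat markers overlapped, at 3.56 to 20.7 CPM and 5.00 to 113 CPM, the highest in anti-LAIR1 replicate 2, without which their median of 1.51 became -0.30. Epithelial markers overlapped, at 4747 to 5887 and 4851 to 5852 CPM. Endothelial markers overlapped in sum, at 247 to 262.5 and 250 to 353 CPM, with all 8 tested genes above 0 (median log2 fold change 0.35). The part of leukocytes, endothelium, skin and fat in the collagen values was not tested.

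Ratios between chains within a library do not depend on its depth or scaling. Col1a1 had 1.28, 1.34 and 1.40 reads per Col1a2 read in the controls and 1.21, 1.27, 1.22 and 1.26 with anti-LAIR1. Per kilobase the ratio lay between 1.09 and 1.27, so there was more Col1a1 than Col1a2 RNA in all 7 tumours. The type I molecule is also known to hold more alpha-1 than alpha-2 chains, but RNA ratios do not give the ratio of chains in the protein. Every anti-LAIR1 ratio was below every control ratio, though the gap of 0.00296 on the log2 scale was smaller than the counting error of a single library (0.0141 to 0.0234). The difference in mean log2 ratio was -0.11 (exact permutation test, two-sided, p = 0.0286, and no smaller p is possible with 35 splits; it was 0.143 when adjusted over the 5 ratios).

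The type V ratio differed more. Col5a1 had 1.19, 1.15 and 1.24 reads per Col5a2 read in controls and 0.750, 0.972, 1.03 and 0.945 with anti-LAIR1. No values overlapped, and the gap of 0.159 on the log2 scale exceeded the counting error (0.0252 to 0.0442). The mean difference was -0.38 on the log2 scale, with an SD of 0.0546 in controls and 0.202 with anti-LAIR1 (exact permutation test, two-sided, p = 0.0571, adjusted p = 0.143). Without anti-LAIR1 replicate 1, the lowest, it was -0.28. The ratio missed the threshold after adjustment, as did all 5. With 35 splits a ratio cannot pass alone, since the smallest possible permutation p, 0.0286, adjusted to 0.143 for Col1a1/Col1a2.

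Col3a1 had 0.883, 0.741 and 0.686 reads per Col1a1 read in controls and 0.855, 1.15, 0.957 and 0.870 with anti-LAIR1, a mean difference of 0.31 on the log2 scale (exact permutation p = 0.143, adjusted p = 0.179). Control replicate 1 lay among the anti-LAIR1 libraries. Col5a1 per Col1a1 ran from 0.227 to 0.300 and Col5a2 per Col1a2 from 0.283 to 0.367 over the 7 libraries. Their mean log2 differences were -0.11 and 0.16 (exact permutation p = 0.314 and 0.143), with overlapping groups.

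**Figure D4:**
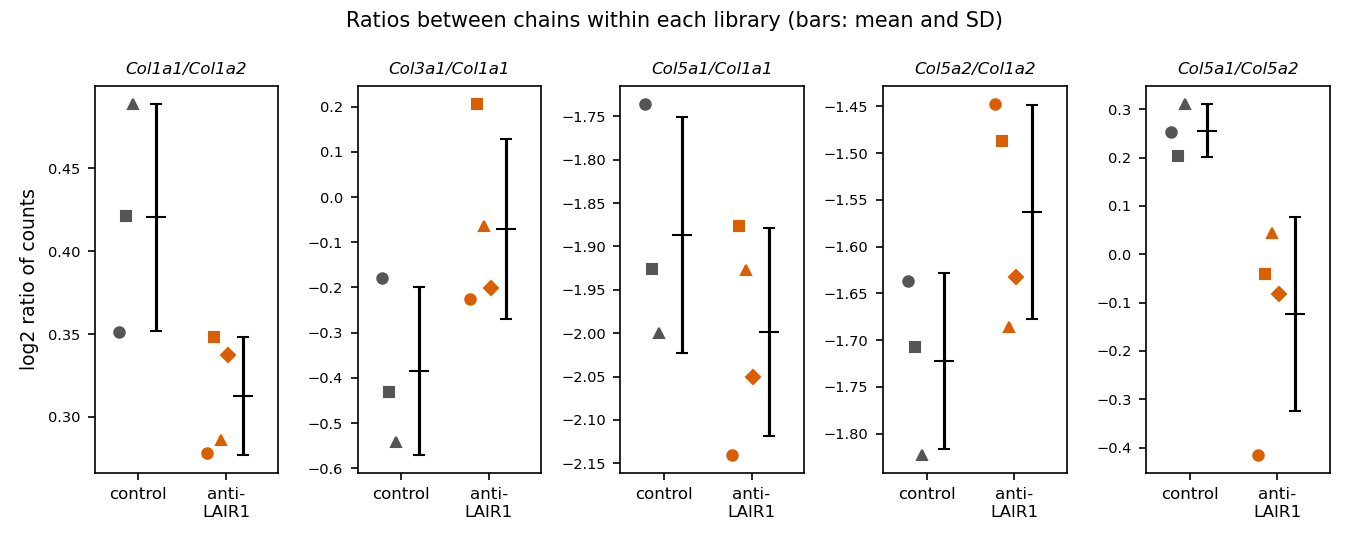
Log2 ratio of read counts between pairs of chains in each library, 1 panel per pair with its own axis, controls in grey and anti-LAIR1 in orange, and black bars for the mean and SD of each group. The groups do not overlap for Col1a1/Col1a2 and Col5a1/Col5a2, and the Col5a1/Col5a2 means lie 0.38 apart.

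Over the 7 libraries the type I chains and Col5a1 varied together. Across 36 pairs of tested members, Col1a1 and Col1a2 had a Pearson r of 0.969 and a Spearman rho of 0.929 on log2 CPM (exact permutation p = 0.00159 and 0.00675, adjusted 0.0262 and 0.243), and r was 0.903 without the 2 libraries farthest from the Col1a1 median. Col1a1 and Col5a1 had r = 0.950 and rho = 0.786 (exact permutation p = 0.00218 and 0.0480, adjusted 0.0262 and 0.298; r = 0.840 without 2 libraries). Col1a1 and Col3a1 had r = 0.666 and rho = 0.571 (exact permutation p = 0.106 and 0.200, adjusted 0.271 and 0.386), and r was -0.22 without 2 libraries, so their relation rests on those libraries. Neither group holds 6 libraries, so no value within a group can be given. Members share each library's scaling and stroma.

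As a description over 7 libraries, with no test, genes among those most like Col1a1, of 10067 compared, were Dse (Pearson r = 0.987) and Sspn (0.976). Dse, with r = 0.989, was also the most like Col1a2, Sspn (r = 0.990) the most like Col5a1, Edc3 (r = 0.984) the most like Col3a1 and Cyp4f16 (r = 0.991) the most like Col5a2. For Col5a3, Col11a1 and Col11a2 the first genes were Lpar1 (r = 0.986), Smc3 (0.976) and Tsen54 (0.986).

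The genes that make fibrillar collagen did not pass the test either. Of 22 genes for hydroxylation, folding and export from the endoplasmic reticulum, 21 were tested, 0 passed (0% of all genes did), and 9 were above and 12 below 0 with a median log2 fold change of -0.00598. Serpinh1, the collagen chaperone HSP47, averaged 177 ± 34.3 (n = 3) and 184 ± 12.6 CPM (n = 4). Plod3, a lysyl hydroxylase with the smallest p of its list, averaged 125 ± 12.7 and 110 ± 9.79 CPM (log2 fold change -0.19, edgeR adjusted p = 0.980). Among the 7 tested genes of propeptide cleavage, 0 passed and the median was -0.09. Adamts14, a procollagen N-proteinase, had 6.28 ± 1.62 and 7.81 ± 0.747 CPM (log2 fold change 0.33, edgeR adjusted p = 1.00).

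Crosslinking enzymes had a median of -0.13 over 6 genes, 5 of them below 0 and 0 called. Loxl3, a lysyl oxidase, averaged 26.3 ± 2.66 in controls and 21.3 ± 1.98 CPM with anti-LAIR1, with overlapping groups (log2 fold change -0.30, SE 0.12, edgeR adjusted p = 0.946). Loxl2 averaged 137 ± 11.0 and 109 ± 24.2 CPM and was lower in all 4 anti-LAIR1 libraries, as were 2.51% of all tested genes (log2 fold change -0.33, edgeR adjusted p = 0.980). The fibril-surface collagens and Col24a1, a fibril-forming relative outside the 10 genes, had a median of -0.17 over 5 tested of 11 listed, with 0 called. Col12a1, which coats type I fibrils, had 682, 578 and 548 CPM in controls and 499, 323, 529 and 295 CPM with anti-LAIR1, and Col24a1 averaged 5.07 ± 0.398 and 4.82 ± 1.86 CPM. Col12a1 thus separated the groups, as did 2.51% of all tested genes in the lower direction, and its edgeR adjusted p was 0.944.

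Proteins that bind fibrils had a median of 0.07 over 15 tested genes, 0 called by edgeR. Tnxb, tenascin-X, was an exception for DESeq2: it had 6.77, 8.45 and 9.26 CPM in controls and 16.4, 38.9, 12.95 and 26.8 CPM with anti-LAIR1. It was higher in all 4, as were 3.06% of all tested genes. Its log2 fold change was 1.56 (SE 0.38), with an edgeR adjusted p of 0.652 and a DESeq2 adjusted p of 0.00368. DESeq2 called 0.388% of the genes it tested. The part of muscle and fat in the Tnxb level was not tested. Dcn and Lum, small proteoglycans of the fibril surface, had 77.2 to 84.0 and 27.8 to 38.1 CPM in controls and 57.0 to 131 and 27.5 to 53.97 CPM with anti-LAIR1, with overlapping groups.

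Collagen receptors had a median of 0.02 over 11 tested of 13 genes, 0 called. Lair1 stood at 7.60, 4.41 and 4.38 CPM in controls and at 8.82, 8.05, 6.13 and 10.4 CPM with anti-LAIR1, with overlapping groups (log2 fold change 0.59, SE 0.26, edgeR adjusted p = 0.967). The highest Lair1 level was in replicate 4, the library lowest in type I and III collagen. That pairing is of 1 library, and a relation between Lair1 and collagen levels was not tested. Itga1, the integrin alpha-1 chain of a collagen receptor, averaged 80.8 ± 5.89 and 97.2 ± 9.20 CPM, with no overlap between the groups, as for 3.06% of all tested genes in the higher direction (log2 fold change 0.27, SE 0.10, edgeR adjusted p = 0.933). The list of collagen degradation had a median of 0.05 over 14 tested genes, 0 called. It pools degrading enzymes with the metalloproteinase inhibitors Timp1, Timp2 and Timp3, so its median is not that of the enzymes alone. The log2 fold changes of these inhibitors were -0.01, -0.18 and 0.17. Mmp15, a membrane-bound metalloproteinase, had 5.07, 8.68 and 8.75 CPM in controls and 10.8, 12.3, 10.9 and 12.5 CPM with anti-LAIR1 (log2 fold change 0.65, edgeR adjusted p = 0.868). Mmp14, a main pericellular collagenase, averaged 402 ± 6.61 and 376 ± 56.4 CPM.

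Regulators of fibrillar collagen transcription had a median of -0.04 over 26 tested genes, 5 above and 21 below 0, with 0 called. Fli1, a repressor of type I collagen genes, averaged 8.45 ± 0.433 in controls and 11.6 ± 1.96 CPM with anti-LAIR1 (log2 fold change 0.46, SE 0.17, edgeR adjusted p = 0.933). It was higher in all 4, as were 3.06% of all tested genes. Fli1 is also known from leukocytes, whose summed markers were higher in the same 4 libraries. Endothelial markers were above 0 for all 8 tested genes as well, though their sums overlapped. The part of either cell type in the Fli1 level was not tested. Tgfb1 averaged 117 ± 10.4 and 105 ± 20.2 CPM, with overlapping groups. Tgfb2 averaged 23.6 ± 0.630 and 19.2 ± 4.04 CPM and was lower in all 4, as were 2.51% of all tested genes (log2 fold change -0.30, edgeR adjusted p = 0.980). Ctgf, a target of TGF beta and YAP listed here as CCN2 and named after its values were seen, averaged 310 ± 64.4 and 197 ± 61.1 CPM (log2 fold change -0.66, edgeR adjusted p = 0.944, DESeq2 adjusted p = 0.312), with overlapping groups.

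**Figure D5:**
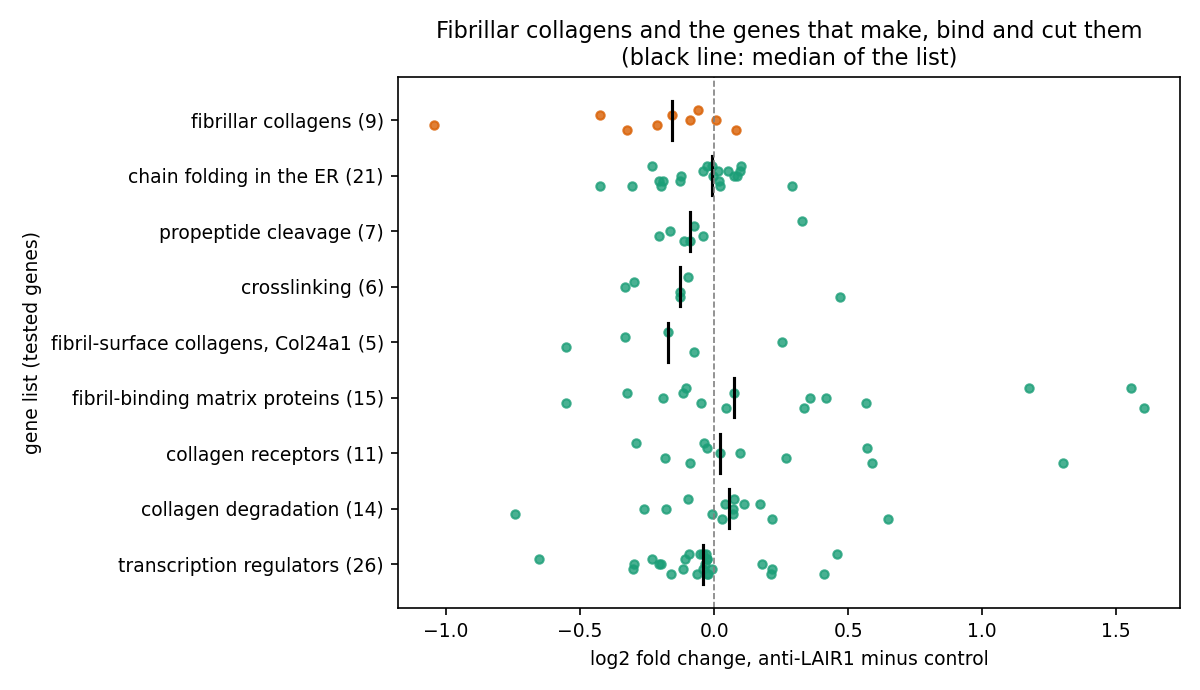
Log2 fold change of each tested gene, anti-LAIR1 minus control, for the fibrillar collagens (orange) and for 8 lists of genes that make, bind, sense or cut them (green), with a black line at each list's median and the number of tested genes in brackets. The degradation list also holds the metalloproteinase inhibitors Timp1, Timp2 and Timp3. The list medians lie between -0.17 and 0.07, and no point in the plot passed edgeR's adjusted test.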

How the data were processed

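Polyadenylated RNA of 7 tumours was sequenced as 100-base single reads from directional libraries, per the labels' protocols. The authors deposited raw read counts per gene symbol, and the tools named in the submitters' processing notes are featureCounts 2.0.1, STAR 2.7.6, Trim Galore and edgeR 3.40.1, with the mm10 build. For the annotation, the strand setting and multi-mapped reads nothing was stated, and reads shared by overlapping genes or by related chains may be misassigned. Groups came from the treatment labels, and replicates were numbered in accession order.

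The test was edgeR 4.0.16 in R 4.3.3 (filterByExpr with a minimum count of 10, TMM, robust quasi-likelihood fit of all 7 libraries, Benjamini-Hochberg adjustment over 13545 genes, threshold 0.05). CPM used TMM-scaled totals of the tested genes, and log2 CPM a prior count of 2. Ratios had 0.5 counts added. DESeq2 1.42.0 and limma 3.58.1 (voom) were alternatives. Intervals of single genes are 95%, and counting errors and floors of 3 counts cover counting error only. Exon lengths, coordinates and sequences came from GENCODE M21 (GRCm38, the assembly mm10 names), with the transcript of longest coding sequence. The members, lists and tests were chosen with earlier results of these data known, so no p was adjusted over a list and no set test was run. From each pathway list the gene with the smallest p was named, besides all members and Lair1, and for likeness the 3 genes of highest Pearson r among those whose average log2 CPM reached 3; some of these are not reported here. Further list genes (Dcn, Lum, Serpinh1, Mmp14, Timp1, Timp2, Timp3, Loxl2, Tgfb1, Tgfb2, Ctgf, Sox9, Acan, Col24a1 and markers) were chosen after their values were seen. Scripts were tested on simulated data. Figures were drawn with matplotlib 3.10.9.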

Additional observations from a re-analysis of the deposited data

Results flagged for a closer look

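In the 4 anti-LAIR1 libraries the Col11a1 level of replicate 2, 2.93 CPM, stood apart from 1.74 to 1.90 CPM in the other 3, with a gap to its nearest neighbour of 0.868 of the group's range, above Dixon's 95% critical value. That level rests on 44 counts. It was the 1 group of 15 tested that stood apart in this way, and chance gives about 1 in 20.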

How the results depend on the processing

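The count of 0 fibrillar collagen genes past the threshold was the same in all 15 alternative fits. The count over all genes was 54 with DESeq2 and lay between 0 and 3 without single libraries, the 3 being found without anti-LAIR1 replicate 2. The count over the pathway and cell type lists likewise lay between 0 and 3 in edgeR without single libraries. DESeq2 called further list genes, among them Tnxb, Ttn, Neb, Des, Csf1r and Lcp1. Signs turned for fold changes near 0 and the cause was not tested. Col3a1 was -0.00266 after thinning, and without single libraries it ran from -0.14 (anti-LAIR1 replicate 3) to 0.14 (replicate 4), with -0.084 without replicate 2 and -0.048 and -0.011 without control replicates 2 and 3. Col5a2 was 0.022 with limma-voom and 0.0011 with the muscle covariate, and ran from -0.17 to 0.057 without anti-LAIR1 replicates 3 and 4. Leaving out single libraries moved Col5a3 from -0.059 (anti-LAIR1 replicate 3) to 0.22 (control replicate 3), with -0.044 when control replicate 1 was left out. Col11a2 ran from -0.43 (anti-LAIR1 replicate 4) to 0.21 (control replicate 1), with 0.097 when anti-LAIR1 replicate 3 was left out. Col1a1, Col1a2, Col5a1, Col11a1 and Col27a1 stayed below 0 in all 15 fits. Of the 8 pathway list medians, 5 changed sign without at least 1 library. No chain ratio turned under any alternative run. None passed either, but with a library left out too few splits remain for any ratio to pass, so those runs could not decide this. No paired analysis was possible because the labels give no replicate numbers shared by the groups. Low counts limit Col11a1, Col11a2 and Col2a1.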
